A study of Mus musculus with 6 samples.

Results

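The nuclear genes that encode the proteins of the mitochondrial ribosome were examined in sorted blood stem cells of the mouse. They were chosen by name, as the genes called Mrpl or Mrps followed by a digit, with pseudogenes left out. This gave 78 of the 26776 genes in the deposited count table, 49 named for the large subunit and 29 for the small subunit. The cells were sorted from bone marrow as LT-HSCs, long-term haematopoietic stem cells, which can rebuild and maintain all blood lineages. They came from Trim47+/eGFP mice, whose genotype name describes 1 wild-type allele and 1 allele with enhanced green fluorescent protein (eGFP) at Trim47, which encodes a tripartite motif ubiquitin ligase. RNA of cells with low (eGFPlo) and high (eGFPhi) reporter fluorescence was sequenced in 3 libraries each, so both groups shared the reporter genotype and differed in the sort. The sources used here do not give the LT-HSC gate, the age and number of the animals, any pooling, or whether each library is a separate animal. The p-values therefore measure only the spread between these libraries, which may be technical.

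Mitochondria keep a small genome of their own and translate its messenger RNAs on a dedicated ribosome that descends from a bacterial one. The ribosomal RNAs are made in the organelle, while every protein of the ribosome is encoded in the nucleus, made in the cytosol and imported. Some of these proteins have a bacterial counterpart and others exist only in mitochondria. The products of this ribosome are core subunits of the respiratory chain and of ATP synthase. Haematopoietic stem cells are known for a quiescent state with low protein synthesis and a metabolism that leans little on respiration, and mitochondrial activity rises as they divide and differentiate.

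Most mitochondrial ribosomal protein genes were modestly lower in eGFPhi. Levels are in CPM, the reads of a gene relative to the scaled total of its library, and differences are log2 fold changes of eGFPhi over eGFPlo. A gene is said to rise or fall where its adjusted p was under 0.05 in the quasi-likelihood test of edgeR over 18081 genes. Of 77 members tested, 49 fell, 2 rose and 26 did not pass. Over all genes tested 31.7% fell and 32.3% rose, together 64.0%. The median log2 fold change of the members was -0.28, beside 0.00 for all genes tested. Among the 11829 genes whose mean level lay in the range of the members, 3606 fell and 3725 rose, with a median of 0.00. The values of both groups did not overlap for 55 members, of which 53 were lower and 2 higher in eGFPhi. Over all genes 69.8% had groups that did not overlap, 34.6% with eGFPhi below and 35.2% with eGFPhi above. The members thus moved mainly in 1 direction. Large falls were about as frequent among them as over all genes: 13 of 77 fell by 1.5-fold or more, beside 16.7%.

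The calls rest on a small spread between libraries. The common biological coefficient of variation was 0.0941. With an assumed value of 0.2 and a likelihood ratio test in edgeR, 9 large and 3 small subunit members fell and 1 small subunit member rose, beside 16.5% of all genes falling and 20.1% rising. Whether the spread seen here is that between animals was not tested.

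**Figure D1:**
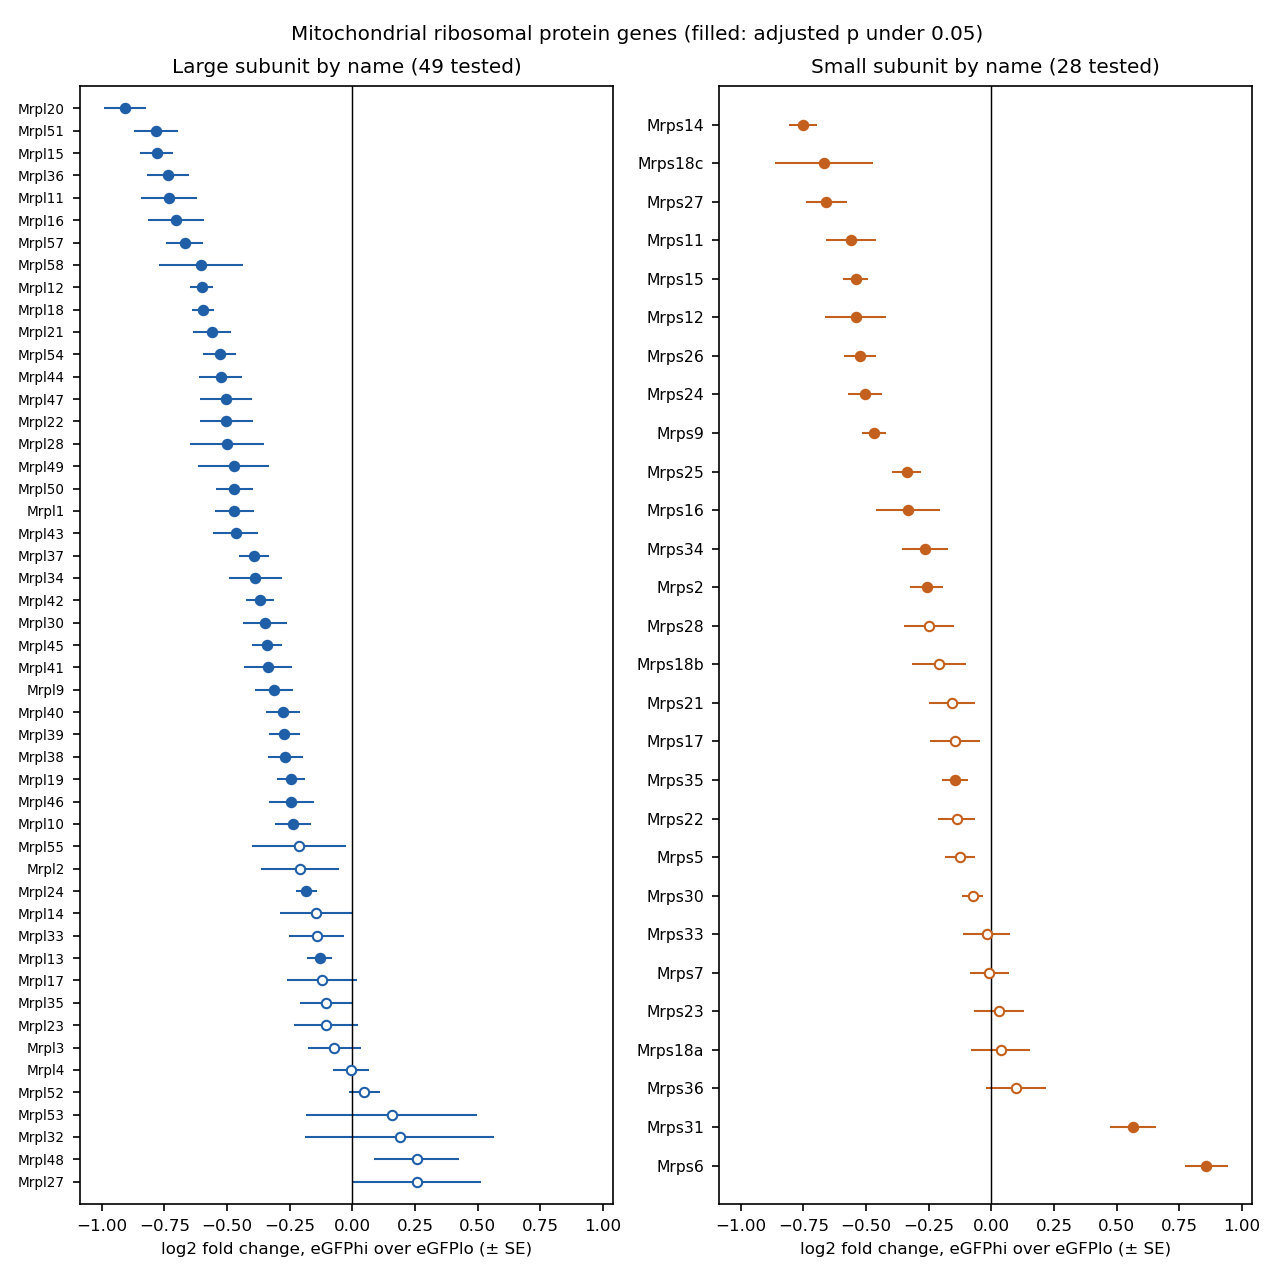
Log2 fold change of eGFPhi over eGFPlo with its standard error (x axis) for each of the 49 large and 28 small subunit members tested (y axis), where filled points had an adjusted p under 0.05 in edgeR. In the large subunit 35 filled points lie below 0 and none above, and in the small subunit 14 lie below and 2, Mrps6 and Mrps31, above.

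The libraries held 11221070 to 26058391 counts. Trim47 (ENSMUSG00000020773) measured 7.28, 8.18 and 8.92 CPM in eGFPlo and 21.6, 26.2 and 23.3 CPM in eGFPhi. It checks the sort labels and is no finding. Markers that are high on LT-HSCs were detected in both groups and summed to 1836 to 1859 CPM in eGFPlo and 4011 to 4240 CPM in eGFPhi, with 15 of 16 higher and none lower. Cd34, Flt3 and Cd48, which are low on LT-HSCs and mark progenitors, were all lower and summed to 436 to 439 CPM and 222 to 234 CPM. Among markers of other cells, those of megakaryocytes were mostly higher and those of the other types listed here mostly lower. Granulocyte-monocyte progenitor markers (18 of 20 lower, 1 higher) summed to 5787 to 5917 CPM in eGFPlo and 373 to 380 CPM in eGFPhi. B cell markers (16 of 18 lower, 1 higher) summed to 6376 to 6466 CPM and 808 to 839 CPM, with Vpreb3, Igll1, Cd22 and Rag2 at 0 in every eGFPhi library. Erythroid markers (11 of 14 tested lower) summed to 255 to 277 CPM and 130 to 140 CPM. T and NK cell markers (5 of 7 tested lower, 1 higher) summed to 31.2 to 33.9 CPM and 10.1 to 12.7 CPM, with Cd3e, Cd3d, Cd3g, Trbc2 and Cd8a at 0 in eGFPhi. Megakaryocyte markers (9 of 11 tested higher, 1 lower) summed to 176 to 182 CPM and 541 to 553 CPM. Genes of mitosis, all 20 of them lower, summed to 3758 to 3811 CPM in eGFPlo and 1532 to 1541 CPM in eGFPhi. The part of these cell types and of dividing cells in the fall of the ribosomal protein genes was not tested, and fewer cells of a type and less RNA per cell cannot be told apart in bulk RNA.

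The promoters of 5 members are shown, because most members fell together and they let a reader compare start regions of members that fell and rose. For 69 members the RefSeq table (GRCm38.p6) gave 75 windows of 300 bases, from 250 before to 50 after the start. Motifs of factors known for nuclear genes of mitochondria were searched on both strands: the palindromic 10-base motif of NRF1, the motif of ETS factors such as GABPA (ACTTCCGG), the 10-base motif of YY1, the E-box of MYC (CACGTG) and SP1 (GGGCGG). No motif of this set contains another. The ETS motif was in 16% of the members' windows, beside 7.61% of the windows of tested genes and 3.89% of all 32851 windows. YY1 was in 6.67%, beside 1.91% and 0.852%, and NRF1 in 4.0%, beside 1.95% and 0.971%. The E-box was in 9.33%, beside 9.85% and 7.15%, and SP1 in 52.0%, beside 60.4% and 35.7%. These are shares of windows, so a member with several windows counts more than once. Mrpl2, for example, had overlapping windows that each held an E-box. The ETS motif was in 6 of 43 windows of members that fell and in 6 of 30 windows of members that did not pass or were not tested. The 5 promoters below belong to Mrpl20, the large subunit member with the greatest fall, to Mrps14 and Mrps27, which fell in the small subunit, and to Mrps6 and Mrps31, which rose. They end before the first start that RefSeq or GENCODE annotates, all lie on the plus strand, and capitals mark the motifs.
Mrpl20, chr4:155802628-155802877: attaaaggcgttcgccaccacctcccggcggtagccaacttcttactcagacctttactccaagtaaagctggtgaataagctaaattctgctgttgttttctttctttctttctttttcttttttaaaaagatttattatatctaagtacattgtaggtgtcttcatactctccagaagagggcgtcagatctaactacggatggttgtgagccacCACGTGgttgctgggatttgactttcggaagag
Mrps14, chr1:160194965-160195214: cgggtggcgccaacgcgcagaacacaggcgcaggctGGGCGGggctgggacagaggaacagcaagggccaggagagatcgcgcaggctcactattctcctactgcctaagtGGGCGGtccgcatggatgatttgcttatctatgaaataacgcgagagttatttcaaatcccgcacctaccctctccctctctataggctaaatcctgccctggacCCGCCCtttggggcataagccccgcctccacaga
Mrps27, chr13:99344536-99344785: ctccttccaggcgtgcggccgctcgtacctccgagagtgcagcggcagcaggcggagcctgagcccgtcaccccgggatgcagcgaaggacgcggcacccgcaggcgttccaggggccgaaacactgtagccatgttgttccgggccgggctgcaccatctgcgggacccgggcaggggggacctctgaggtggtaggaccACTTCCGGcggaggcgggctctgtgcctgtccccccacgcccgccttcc
Mrps6, chr16:92058086-92058269: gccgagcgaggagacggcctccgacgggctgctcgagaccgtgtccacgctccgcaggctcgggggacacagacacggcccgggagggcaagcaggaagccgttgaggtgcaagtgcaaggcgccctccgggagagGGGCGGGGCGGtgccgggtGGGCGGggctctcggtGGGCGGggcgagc
Mrps31, chr8:22411090-22411339: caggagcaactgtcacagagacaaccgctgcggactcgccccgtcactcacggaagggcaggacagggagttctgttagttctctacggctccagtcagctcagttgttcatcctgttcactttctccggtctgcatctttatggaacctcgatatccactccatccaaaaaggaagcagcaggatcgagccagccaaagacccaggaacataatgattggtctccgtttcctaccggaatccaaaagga
The stretch of Mrpl20 held 1 E-box, that of Mrps14 held 3 SP1 motifs, and that of Mrps27 held 1 ETS motif. The stretch of Mrps6 held 4 SP1 motifs, of which the first pair share a base, and that of Mrps31 held none of the motifs. A match is a description of these letters and not a binding site.

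In the large subunit 35 of 49 members fell, none rose and 14 did not pass, with a median log2 fold change of -0.34. Of all genes tested, 31.7% fell and 32.3% rose. A member was taken to have a bacterial counterpart where it sits at the place of a bacterial protein in the ribosome. Among the 30 such members 19 fell, with a median of -0.28, and among the 19 specific to mitochondria 16 fell, with a median of -0.37. Summed over the subunit, the libraries held 1247, 1242 and 1246 CPM in eGFPlo and 985, 971 and 962 CPM in eGFPhi. The sum was thus 21.8% lower in eGFPhi, and the groups were far apart.

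Mrpl20 (ENSMUSG00000029066, chr4:155802878-155809975) encodes a protein whose bacterial counterpart binds ribosomal RNA early in the assembly of the large subunit. It measured 25.2, 22.9 and 23.1 CPM in eGFPlo and 13.4, 12.9 and 11.7 CPM in eGFPhi. The groups did not overlap, and the fall was 1.88-fold (log2 fold change -0.91, SE 0.08, adjusted p = 6.52e-05 in edgeR), the greatest among the members. Its promoter, printed above, was the only one of the 5 with an E-box.

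Mrpl15 (ENSMUSG00000033845, chr1:4773206-4785739), whose bacterial counterpart is a conserved protein of the large subunit, measured 52.9, 55.2 and 52.4 CPM in eGFPlo and 33.4, 31.6 and 28.6 CPM in eGFPhi. All eGFPhi libraries lay well below all eGFPlo libraries, a 1.72-fold fall (log2 fold change -0.78, SE 0.07, adjusted p = 3.62e-05 in edgeR). Mrpl51 (ENSMUSG00000030335, chr6:125191801-125196269), a protein found only in mitochondrial ribosomes, measured 19.3, 21.9 and 22.4 CPM against 12.2, 12.8 and 11.9 CPM. This was a fall of the same 1.72-fold (log2 fold change -0.78, SE 0.09, adjusted p = 0.000151 in edgeR). A near-identical pseudogene of Mrpl51 held 24.2% of their joint level, and with it added the log2 ratio of the group means was -0.67.

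Mrpl36 (ENSMUSG00000021607), a very small zinc-binding protein, measured 14.9, 15.2 and 14.9 CPM in eGFPlo and 9.61, 8.76 and 8.78 CPM in eGFPhi. The libraries within each group lay close together and the groups apart (log2 fold change -0.74, SE 0.08, adjusted p = 0.000185 in edgeR). Mrpl11 (ENSMUSG00000024902), which forms the base of the stalk where translation factors bind, measured 9.59, 11.1 and 10.6 CPM against 5.96, 5.99 and 6.88 CPM (log2 fold change -0.73, SE 0.11, adjusted p = 0.00081 in edgeR). Mrpl16 (ENSMUSG00000024683), whose bacterial counterpart lies near the peptidyl transferase centre, measured 23.2, 28.6 and 28.1 CPM against 18.7, 15.6 and 15.3 CPM (log2 fold change -0.70, SE 0.11, adjusted p = 0.00104 in edgeR). All 3 genes fell without overlap between the groups.

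Mrpl12 forms the flexible stalk that recruits translation factors. It was the second most abundant member per kilobase of exon, and measured 66.1, 61.4 and 65.4 CPM in eGFPlo and 42.3, 43.1 and 41.7 CPM in eGFPhi (ENSMUSG00000039640, chr11:120484613-120489065). The fall was 1.52-fold (log2 fold change -0.60, SE 0.05, adjusted p = 2.31e-05 in edgeR), with tight and separate groups. Mrpl18 (ENSMUSG00000057388), which belongs to the central protuberance of the subunit, measured 63.6, 63.9 and 63.9 CPM against 43.3, 40.3 and 43.1 CPM, a 1.51-fold fall (log2 fold change -0.60, SE 0.05, adjusted p = 2.22e-05 in edgeR). Mrpl58, also called Ict1, is a peptidyl-tRNA hydrolase that rescues stalled ribosomes and was built into the mitochondrial ribosome. It measured 12.9, 9.23 and 14.3 CPM in eGFPlo and 8.81, 7.61 and 7.76 CPM in eGFPhi, where the lowest eGFPlo library came close to the highest eGFPhi library. Its fall (log2 fold change -0.60, SE 0.17, adjusted p = 0.0151 in edgeR) did not pass without eGFPlo replicate 3 (log2 fold change -0.46, adjusted p = 0.0533 in edgeR).

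Some large subunit members stayed close to no change. Mrpl4 (ENSMUSG00000003299), whose bacterial counterpart lines the exit tunnel, measured 21.2, 23.8 and 23.8 CPM in eGFPlo and 23.9, 22.3 and 22.5 CPM in eGFPhi (log2 fold change -0.01, SE 0.07). Mrpl3 (ENSMUSG00000032563) measured 45.0, 41.8 and 50.4 CPM against 37.5, 48.5 and 44.0 CPM, with wide and overlapping groups (log2 fold change -0.07, SE 0.11). Mrpl52 (ENSMUSG00000010406), a mitochondria-specific protein, measured 37.0, 37.0 and 37.8 CPM against 39.6, 40.5 and 35.5 CPM (log2 fold change 0.05, SE 0.06). The groups overlapped in each of these genes.

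Per kilobase of merged exon, the order of levels in the large subunit was led by Mrpl18, Mrpl12 and Mrpl52. Mrpl18 stood at 45.6 CPM per kilobase in eGFPlo and 30.2 in eGFPhi, and Mrpl12 at 42.0 and 27.6. Mrpl52 stood at 33.6 and 34.7 CPM per kilobase, so that it ranked behind Mrpl18 and Mrpl12 over both groups but had the highest mean of the large subunit in eGFPhi. The lowest were Mrpl33 (2.25 and 2.06 CPM per kilobase), Mrpl53 (1.73 and 1.93) and Mrpl48 (1.52 and 1.83), none of which passed the test. The predicted gene Gm42688 covers 695 of the 790 exon bases of Mrpl53 on the same strand, and Gm43809 covers 261 of the 7326 of Mrpl33, so these levels depend on how reads were assigned. The highest mean level per kilobase in the subunit was 22.6 times the lowest. The order depends on the length used: with the longest coding transcript in place of the merged exons, Mrpl33 moved from rank 75 to rank 8 of 77, and Spearman's rho between both orders was 0.69 across the 77 members.

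**Figure D2:**
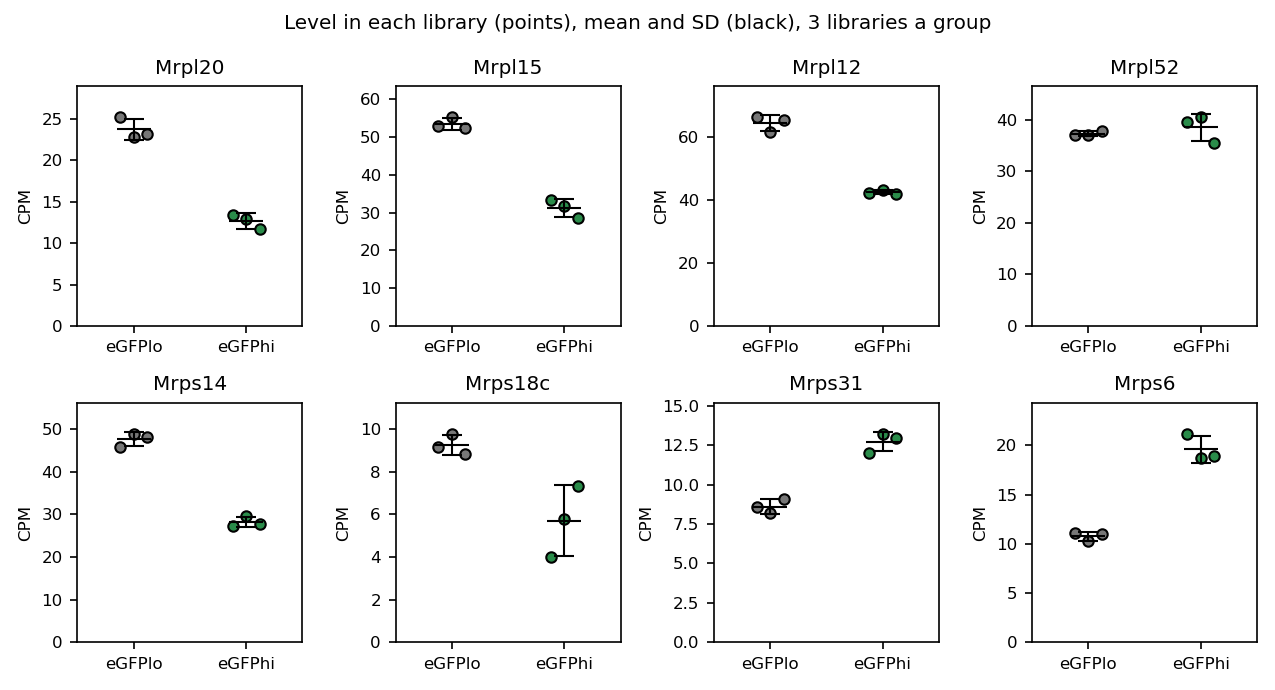
Level in CPM (y axis) in each of 3 eGFPlo and 3 eGFPhi libraries (points), with the mean and SD (black), for 4 large subunit members (upper panels) and 4 small subunit members (lower panels). Mrpl20, Mrpl15, Mrpl12, Mrps14 and Mrps18c lie lower in every eGFPhi library, Mrpl52 overlaps, and Mrps31 and Mrps6 lie higher in every eGFPhi library.

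In the small subunit 14 of 28 tested members fell, 2 rose and 12 did not pass. Over all genes tested 31.7% fell and 32.3% rose. The median log2 fold change of these small subunit members was -0.23. The 15 tested members with a bacterial counterpart gave 9 falls and 1 rise with a median of -0.33, and the 12 specific to mitochondria gave 5 falls and 1 rise with a median of -0.14. The latter include Mrps18a and Mrps18b, which descend from a bacterial protein but sit at other places. Among the members of the small subunit without exon overlap with another gene the median was -0.15. The subunit by name summed to 694, 710 and 697 CPM in eGFPlo and to 583, 590 and 587 CPM in eGFPhi, which was 16.2% lower. This sum includes Mrps30, Mrps18a and Mrps36, whose places are described below.

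Mrps14 (ENSMUSG00000058267, chr1:160195215-160202170), whose bacterial counterpart belongs to the head of the subunit, measured 45.8, 48.9 and 48.2 CPM in eGFPlo and 27.2, 29.6 and 27.8 CPM in eGFPhi. The fall was 1.69-fold with no overlap (log2 fold change -0.75, SE 0.05, adjusted p = 1.84e-05 in edgeR). Mrps27 (ENSMUSG00000041632, chr13:99344786-99415562), an RNA-binding protein of the pentatricopeptide repeat family, measured 23.6, 27.5 and 27.2 CPM against 17.1, 16.2 and 16.5 CPM. It fell 1.58-fold (log2 fold change -0.66, SE 0.08, adjusted p = 0.000266 in edgeR). The promoters of both are printed above and share no motif of the set within the printed bases.

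Mrps11 (ENSMUSG00000030611), of the platform of the subunit, measured 10.2, 10.4 and 10.9 CPM in eGFPlo and 7.65, 7.15 and 6.63 CPM in eGFPhi (log2 fold change -0.56, SE 0.10, adjusted p = 0.00168 in edgeR). Mrps15 (ENSMUSG00000028861), an RNA-binding protein with a bacterial counterpart, measured 43.5, 44.1 and 41.4 CPM against 30.0, 29.2 and 29.4 CPM (log2 fold change -0.54, SE 0.05, adjusted p = 5.91e-05 in edgeR). Mrps12 (ENSMUSG00000045948), whose bacterial counterpart sits at the decoding centre, measured 11.1, 9.85 and 9.97 CPM against 6.05, 7.84 and 7.04 CPM (log2 fold change -0.54, SE 0.12, adjusted p = 0.0057 in edgeR). In each of these 3 genes every eGFPhi library lay below every eGFPlo library.

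Mrps6 and Mrps31 rose. Mrps6 (ENSMUSG00000039680, chr16:92058270-92112227) encodes the counterpart of bacterial S6, a platform protein. It measured 11.1, 10.3 and 11 CPM in eGFPlo and 21.2, 18.7 and 19.0 CPM in eGFPhi. This was a 1.81-fold rise (log2 fold change 0.86, SE 0.09, adjusted p = 9.52e-05 in edgeR), and the groups lay far apart. The gene took 1.54% of the small subunit's summed level in eGFPlo and 3.34% in eGFPhi. Slc5a3, the sodium/myo-inositol cotransporter, lies inside Mrps6 on the same strand and shares exon bases with it. It rose from 32.5 ± 0.716 to 47 ± 2.45 CPM (SD, n = 3 each; log2 fold change 0.54, adjusted p = 0.000105 in edgeR), and the sources used here do not say how reads were divided between both genes, so the value of Mrps6 is uncertain to that extent.

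Mrps31 (ENSMUSG00000031533, chr8:22411361-22429665), a protein specific to mitochondria, measured 8.57, 8.18 and 9.08 CPM in eGFPlo and 12, 13.2 and 12.9 CPM in eGFPhi. It rose 1.48-fold without overlap (log2 fold change 0.57, SE 0.09, adjusted p = 0.00111 in edgeR), and shared no exon with another gene. With an assumed coefficient of variation of 0.2 it did not pass (adjusted p = 0.0671 in edgeR), while Mrps6 did (adjusted p = 0.00253 in edgeR). The neighbour Slc25a15, a mitochondrial ornithine carrier, fell (log2 fold change -0.29, adjusted p = 0.0314 in edgeR). Neither of the neighbours Smim19 (log2 fold change 0.33, adjusted p = 0.0966, groups without overlap) and Slc20a2 (log2 fold change -0.23, adjusted p = 0.0581 in edgeR) passed.

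Mrps18a, Mrps18b and Mrps18c descend from the same bacterial S18 protein, and each mitochondrial ribosome carries all 3 at different places. Mrps18c (ENSMUSG00000016833), the one that takes the bacterial place beside Mrps6, measured 9.17, 9.78 and 8.86 CPM in eGFPlo and 4.01, 5.80 and 7.35 CPM in eGFPhi. The eGFPhi libraries were spread widely but stayed below eGFPlo (log2 fold change -0.67, SE 0.20, adjusted p = 0.0184 in edgeR). The predicted gene Gm43511 covers 250 of the 1076 exon bases of Mrps18c on the same strand, so its level depends on how reads were assigned. The call did not pass without eGFPlo replicate 2 (log2 fold change -0.63, adjusted p = 0.0536) or without eGFPhi replicate 2 (log2 fold change -0.66, adjusted p = 0.0508 in edgeR). Mrps18b (ENSMUSG00000024436) measured 10.5, 12.7 and 11.1 CPM against 9.70, 9.38 and 10.6 CPM, with overlap (log2 fold change -0.21, SE 0.11). A near-identical pseudogene of Mrps18b held 14.8% of their joint level, and with it added the log2 ratio of the group means was -0.33. Mrps18a (ENSMUSG00000023967), which despite its name sits in the large subunit, measured 22.2, 16.3 and 20.4 CPM against 21.1, 18.9 and 20.4 CPM, also with overlap (log2 fold change 0.04, SE 0.12). Whether Mrps18c differed from the other two in its change was not tested.

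Mrps30 (ENSMUSG00000021731) is the other member that the structure places in the large subunit. It measured 57.1, 60.1 and 56.9 CPM in eGFPlo and 55.2, 55.6 and 54.5 CPM in eGFPhi, a small difference that did not pass (log2 fold change -0.08, SE 0.04, adjusted p = 0.148 in edgeR) although the groups did not overlap. Mrps36 (ENSMUSG00000061474) is now known as a part of the 2-oxoglutarate dehydrogenase complex and not of the ribosome. It measured 5.74, 5.87 and 5.04 CPM against 6.23, 6.03 and 5.55 CPM (log2 fold change 0.10, SE 0.12). With these 3 placed by structure, 35 of 51 large subunit members fell with a median of -0.34, and 14 of 25 tested small subunit members fell with a median of -0.26.

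The small subunit members nearest to no change were Mrps7, Mrps33 and Mrps23. Mrps7 (ENSMUSG00000046756), of the head of the subunit, measured 23.4, 25.7 and 28.2 CPM in eGFPlo and 26.2, 25.4 and 25.5 CPM in eGFPhi (log2 fold change -0.01, SE 0.08). Mrps33 (ENSMUSG00000029918) measured 11.1, 9.71 and 9.80 CPM against 9.97, 9.91 and 10.2 CPM (log2 fold change -0.02, SE 0.09), and Mrps23 (ENSMUSG00000023723) measured 18.2, 20.4 and 16.2 CPM against 17.7, 18.9 and 19.2 CPM (log2 fold change 0.03, SE 0.10). All of them overlapped between the groups. A near-identical pseudogene of Mrps33 held 27.2% of their joint level, and with it added the log2 ratio of the group means was -0.11.

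Per kilobase of merged exon the small subunit was led by Mrps15 (25.4 CPM per kilobase in eGFPlo and 17.5 in eGFPhi), Mrps21 (20.5 and 18.4) and Mrps28 (19.2 and 16.2). Mrps21 and Mrps28 lay lower in every eGFPhi library but did not pass (adjusted p = 0.164 and 0.0612 in edgeR). The lowest were Mrps16 (4.44 and 3.50), Mrps31 (2.62 and 3.87) and Mrps17 (3.29 and 2.99). Mrps16 fell by 0.33 on the log2 scale with an adjusted p of 0.0495 in edgeR, a call that was lost without eGFPlo replicate 1, 2 or 3 or eGFPhi replicate 1 or 2 (adjusted p = 0.0702 to 0.134). The highest level per kilobase among tested small subunit members was 6.82 times the lowest.

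Mrps10 (ENSMUSG00000034729) was the only member not tested, since it did not pass the filter on low counts. It had 9, 5 and 10 reads in eGFPlo and 0, 3 and 2 reads in eGFPhi. A near-identical pseudogene held 88.1% of their joint level and measured 3.80 ± 0.123 CPM in eGFPlo and 0.874 ± 0.158 CPM in eGFPhi (SD, n = 3 each). The level of Mrps10 itself is therefore uncertain. Without a filter it fell in edgeR (adjusted p = 0.00931), as it did in DESeq2 (adjusted p = 0.0374), on 24 reads in eGFPlo and 5 in eGFPhi. Without eGFPlo replicate 2 or without eGFPhi replicate 1 it passed the filter through its eGFPlo reads only. Those fits therefore lend no support to a fall.

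The summed large subunit exceeded the summed small subunit 1.8, 1.75 and 1.79 times in eGFPlo and 1.69, 1.65 and 1.64 times in eGFPhi. The ratio was lower in every eGFPhi library. These sums and their falls follow the names. The small subunit sum thus holds Mrps30 (mean 58.1 CPM in eGFPlo and 55.1 CPM in eGFPhi) and Mrps18a (19.6 and 20.1 CPM), which sit in the large subunit. It also holds Mrps36, which is not of the ribosome, and Mrps6, whose value is uncertain. A ratio with subunits by place was not computed, so a shift between the subunits as built was not tested. The plot of summed levels shows both subunits and this ratio by library.

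**Figure D3:**
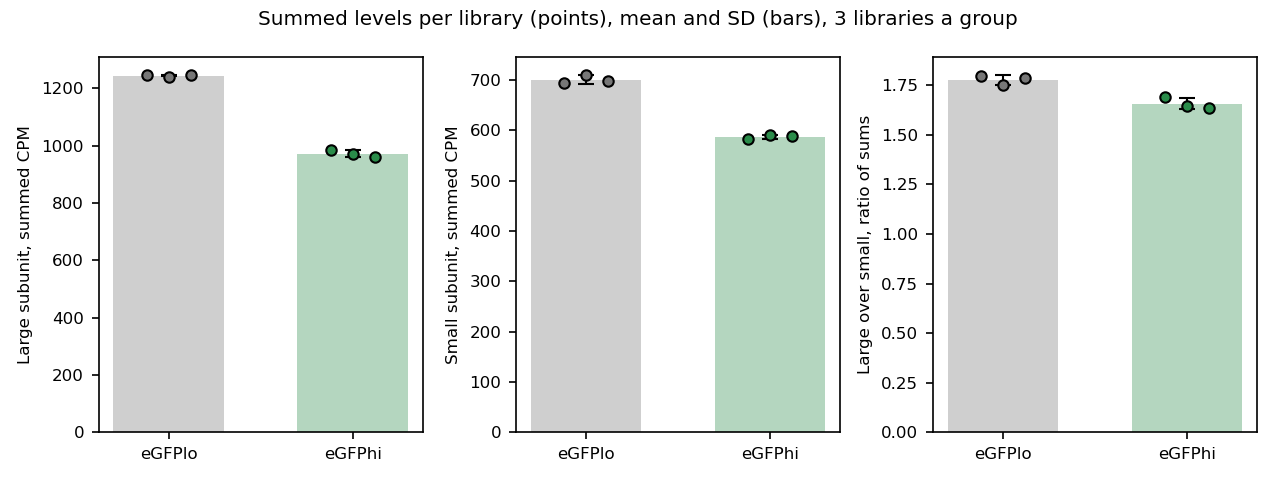
Summed CPM (y axis) of the large subunit and small subunit members by name and their ratio in 3 eGFPlo and 3 eGFPhi libraries (points), with mean and SD (bars). The large subunit sum lies between 1242 and 1247 in eGFPlo and between 962 and 985 in eGFPhi, the small subunit sum between 694 and 710 and between 583 and 590.

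Across the 77 tested members Spearman's rho between the log2 fold change and the mean CPM was -0.10, and -0.25 with the level per kilobase. These are descriptions across genes of the same libraries. Mean levels ran from 1.45 CPM to 58.7 CPM with a median of 19.9 CPM, beside 13.4 CPM for all genes tested. Spread between libraries was small for most members. The coefficient of variation had a median over members of 5.99% in eGFPlo and 5.82% in eGFPhi, and was greatest for Mrpl53 in eGFPlo (47.1%) and for Mrpl32 in eGFPhi (42.3%). Mrpl32 measured 22.3, 11.3 and 12.5 CPM in eGFPlo and 22.6, 20.7 and 8.99 CPM in eGFPhi, so no difference was detectable at this spread.

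**Figure D4:**
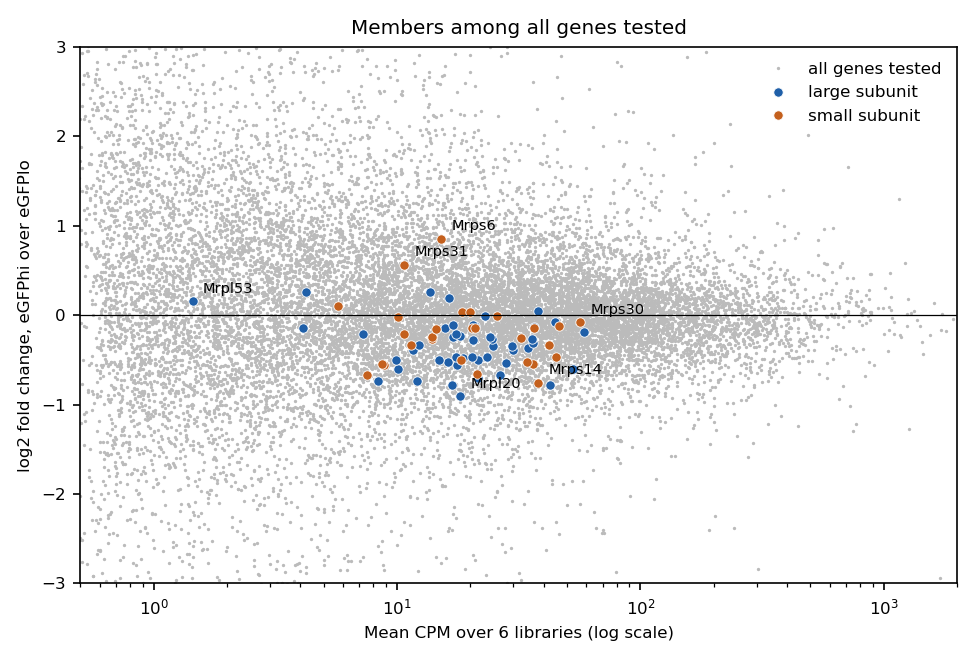
Log2 fold change of eGFPhi over eGFPlo (y axis) against mean CPM over 6 libraries (x axis, log scale) for large and small subunit members (coloured) and all genes tested (grey), with some members named. The members lie between 1.45 and 58.7 CPM and mostly just below 0, inside the cloud of all genes, with Mrps6 at 0.86 and Mrpl20 at -0.91 as their extremes.

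Pseudogene copies touched several members. For 15 members the table held a pseudogene that matched over at least 200 bases at 97% identity or more. The copy of Mrpl27 held 56.0% of their joint level, the copies of Mrps36 held 55.0%, and that of Mrpl48 held 40.6%. Mrpl27 measured 3.86 ± 1.24 CPM in eGFPlo and 4.6 ± 0.696 CPM in eGFPhi (SD, n = 3 each), while its copy measured 7.07 ± 0.745 and 3.72 ± 0.511 CPM. The log2 ratio of the group means was 0.25 for Mrpl27 alone and -0.39 with the copy added. For Mrps36 it was 0.10 alone and -0.36 with its copies. For Mrpl23 it was -0.12 alone and 0.02 with its copy, and Mrpl48 kept its direction (0.27 and 0.18). None of these 4 members passed the test on its own counts. How many reads a member shared with its copy was not measured.

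Many members share a start region with a gene on the other strand. An opposite-strand start lay within 500 bases for 27 members, 34.6%, beside 18.1% of 12769 tested protein-coding genes. Among 24 tested coding partners, counting the pair Mrps11 and Mrpl46 once from each side, 12 fell and 4 rose. Over all genes tested 31.7% fell and 32.3% rose. Mrps11 and Mrpl46 are members themselves, and both fell. The median log2 fold change of the partners was -0.21. Some pairs fell together, such as Mrpl51 with Ncapd2, a condensin subunit (-0.89), Mrps27 with Ptcd2 (-0.71), Mrps18c with Helq, a DNA helicase (-0.81), and Mrps12 with Sars2, the mitochondrial seryl-tRNA synthetase (-1.65). In others the partner rose while the member fell: Mrpl54 fell (-0.53) beside Apba3 (1.23), Mrpl44 fell (-0.53) beside Wdfy1 (0.93), and Mrpl49 fell (-0.47) beside Fau (0.23). These pairs were chosen after their values were seen. Exon overlap with any other gene was present for 33 members, and the strand setting of the authors' counting is not known from the sources used here. Among members without such overlap 19 of 27 in the large subunit fell, with a median of -0.35. In the small subunit 7 of 17 tested fell and 1 rose, beside 31.7% and 32.3% of all genes, with a median of -0.15.

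Members are spread over 17 chromosomes, with 11 on chromosome 11. Of these, Mrpl38 (chr11:116131817-116138868) lies 4606 bases from Trim47. It measured 26.6, 27.9 and 26.2 CPM in eGFPlo and 24.1, 21.4 and 21.7 CPM in eGFPhi, a fall (log2 fold change -0.27, SE 0.07, adjusted p = 0.0111 in edgeR) where Trim47 rose by 1.54 on the log2 scale.

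Ribosomal proteins of the mitochondrion that carry other names were also lower. Of 5 tested, 4 fell and none rose, and the median log2 fold change was -0.31. Aurkaip1, of the small subunit, fell from 46.0 ± 11.8 to 23.5 ± 0.881 CPM (log2 fold change -0.96, adjusted p = 0.00218). Gadd45gip1, of the large subunit, fell from 33.4 ± 2.94 to 24.1 ± 1.90 CPM (log2 fold change -0.48). Chchd1 fell from 30.2 ± 1.35 to 24.3 ± 1.07 CPM (log2 fold change -0.31), and Ptcd3 from 55.7 ± 1.51 to 48.5 ± 4.05 CPM (log2 fold change -0.20), all SD with n = 3 each and past the threshold in edgeR. Dap3, a GTP-binding protein of the small subunit, measured 38.9 ± 2.48 and 38.1 ± 4.0 CPM and did not pass (log2 fold change -0.04).

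The rest of the pathway moved in both directions, as did all genes tested, of which 31.7% fell and 32.3% rose. Of 29 genes of ribosome assembly and rRNA modification 11 fell and 6 rose, with a median of -0.10. The rRNA methyltransferases Nsun4 (12.4 ± 0.541 to 21.9 ± 1.13 CPM, log2 fold change 0.82) and Mrm1 (0.83) rose, and the assembly factors Rbfa (-0.54) and C1qbp (-0.66) fell. Of 20 translation factors 8 fell and 3 rose, with a median of -0.15. The initiation factor Mtif2 (0.29), the recycling factor Mrrf (0.45) and Gatb (0.69), which makes glutaminyl-tRNA, rose, while Gfm2 (-0.37), which splits ribosomes, and the RNA-stabilising protein Lrpprc (-0.37) fell. Of 17 mitochondrial tRNA synthetases 7 fell and 3 rose, with a median of -0.09. Sars2 fell from 17.4 ± 0.233 to 5.51 ± 0.252 CPM (log2 fold change -1.65, adjusted p = 3.28e-06 in edgeR), and Pars2 rose from 2.51 ± 0.797 to 4.77 ± 0.470 CPM (log2 fold change 0.93).

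Of 21 genes of mitochondrial transcription and RNA processing 9 fell and 3 rose, with a median of -0.11. Hsd17b10, a subunit of mitochondrial RNase P, rose from 19.2 ± 0.835 to 37.5 ± 4.4 CPM (log2 fold change 0.96), and the elongation factor Tefm rose (0.66), while the exonuclease Rexo2 fell (-0.72). The 13 messenger RNAs of the mitochondrial genome changed little. Of these 6 fell and 3 rose, with a median of -0.04 and a range from -0.22 for mt-Nd1 to 0.43 for mt-Nd3, and they summed to 18206 to 18790 CPM in eGFPlo and 17799 to 17977 CPM in eGFPhi. The libraries were made from poly-A RNA, which bears on the recovery of such transcripts.

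Genes of mitochondrial protein import had the lowest median of these lists apart from the cell type markers and mitosis. Of 22, 15 fell and 3 rose, with a median of -0.41. Grpel1, which serves the import motor, fell from 57.1 ± 3.34 to 31.3 ± 0.143 CPM (log2 fold change -0.87), and the matrix chaperonin genes Hspd1 (-0.54) and Hspe1 (-0.65) fell with it. The import receptor Tomm20 (0.24) and the channel subunit Timm17a (0.51) rose. Of 16 regulators of mitochondrial biogenesis 9 fell and 3 rose, with a median of -0.18. Ppargc1a, a coactivator of mitochondrial biogenesis, rose from 1.81 ± 0.358 to 7.23 ± 0.0928 CPM (log2 fold change 2.01, adjusted p = 2.38e-05 in edgeR). Gabpa, which binds the ETS motif, fell from 141 ± 5.06 to 104 ± 0.605 CPM (log2 fold change -0.44), and Yy1 (-0.26) and Max (-0.73) fell, while Mycn rose from 34.1 ± 2.22 to 91.0 ± 30.6 CPM (log2 fold change 1.41). The values are SD with n = 3 each. The plot of fold changes by gene list sets these groups beside both subunits.

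**Figure D5:**
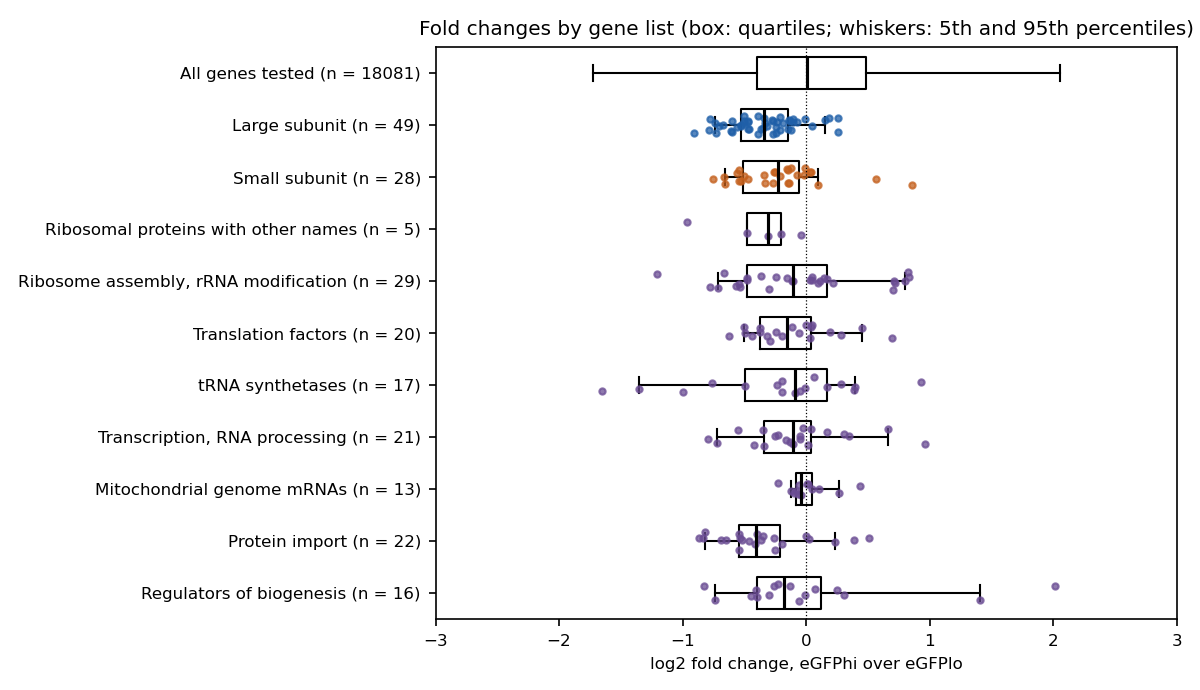
Log2 fold change of eGFPhi over eGFPlo (x axis) for all genes tested, both subunits and 8 other gene lists (y axis, with the number of genes tested), where boxes are quartiles, whiskers the 5th and 95th percentiles and points single genes. The medians are 0.00 for all genes, -0.34 and -0.23 for the subunits and -0.41 for import, while the mitochondrial messenger RNAs sit close to 0 at -0.04.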

How the data were processed

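Per the labels, total RNA was selected on poly-T beads and made into paired-end stranded libraries. The submitters' processing notes list CASAVA 1.8, HISAT2, StringTie and edgeR, and the builds hg38 and GRCm38, without saying what each did; the counter and its strand setting are not named. The deposited table holds read counts per gene, per the file headers. It also holds FPKM values by the authors, used only to read the gene length behind them. For 65 members that length was over 1.1 times the merged exon length. Levels per kilobase therefore use merged exons of GENCODE M21, where all 78 members have the same coordinates. Of the 26776 genes, 26710 identifiers are in that annotation.

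Counts were fitted in R 4.3.3 with edgeR 4.0.16 on the 6 libraries: filterByExpr (minimum count 10, minimum total 15), TMM factors, unpaired quasi-likelihood tests of group, and Benjamini-Hochberg adjustment over all 18081 genes. Tested on simulated data with 200 changed of 18081 genes, the fit called 46% of genes changed by 0.5 on the log2 scale, 42.6% of those changed by -0.5, and 0.00574% of unchanged genes. The simulation gave all genes the same biological spread. In the real data 64.0% of genes were called, which makes the adjusted threshold far less strict. These rates therefore do not carry over to this comparison. Total counts of 11221070 to 26058391 put 3 reads at 0.115 to 0.267 CPM, for counting error only. No pair of libraries within a group agreed within sampling noise (chi-square per degree of freedom 4.09 to 6.34).

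The members and lists were chosen with earlier results of these data known. The 5 pseudogene rows of the name pattern were left out, among them Mrpl23-ps1, Mrps36-ps1 and Mrps36-ps2. Members were named by rule: in each subunit the 6 with the largest falls, up to 6 with the largest rises, any against the majority, the 3 highest and 3 lowest per kilobase, the 3 nearest to no change, those not tested, and those whose place or role the name does not give. From each list up to 3 per direction with the smallest p could be named, and others were chosen after their values were seen. Pseudogene copies were found with blastn 2.17.0. Alternatives were other scaling factors (RLE, upper quartile), no filter, a filter of 5 CPM in 3 libraries, DESeq2 1.42.0, limma-voom (limma 3.58.1), an assumed coefficient of variation of 0.2, a replicate block, each library left out, and members without exon overlap. Those added after seeing the data were subunits by place and members without a pseudogene copy. A comparison of the Mrps18 proteins was not run.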

Additional observations from a re-analysis of the deposited data

How the results depend on the processing

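No member that rose or fell turned its direction in any alternative run. Of the 51 members that rose or fell, 12 kept their call in every alternative fit run, 41 without each library in turn, and 13 with an assumed coefficient of variation of 0.2. That assumption left 3637 genes higher and 2982 lower, in the large subunit 9 lower, in the small subunit 3 lower and 1 higher, and in the 8 other mitochondrial lists 31 calls in place of 92 (Tfam, held by both transcription and regulators, counted once). Among members without exon overlap 19 fell in the large subunit, and in the small subunit 7 fell and 1 rose with a median of -0.15. The large subunit median was -0.32 with upper-quartile factors, and the small subunit median was -0.26 with subunits by place and also without members that have a pseudogene copy. Upper-quartile factors moved the median of all genes to 0.03. Leaving out each library gave 0 to 1 large subunit members higher (Mrpl48 without eGFPhi replicate 2), 32 to 34 lower and a median of -0.36 to -0.32, and 11 to 13 small subunit members lower. The latter include Mrps10 without eGFPlo replicate 2 (log2 fold change -2.79) and without eGFPhi replicate 1 (-2.24). It passed the filter there through its eGFPlo reads only, so its place in these counts is no support for a fall. The calls of Mrpl28, Mrpl49, Mrpl10, Mrpl13, Mrpl46, Mrpl58, Mrps16, Mrps18c, Mrps34 and Mrps35 were lost without at least 1 library, and Mrpl17, Mrps17 and Mrps5 gained one. DESeq2 lost 9 calls and limma-voom 2. With a replicate block, 33 large subunit members fell, and 13 small subunit members fell and 2 rose; the labels do not say that numbers pair libraries, and same-numbered libraries did not deviate together (r of -0.0133, 0.000555 and -0.0108). Where no cause is named here, the cause was not tested.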

Other observations

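The pseudogenes of the name pattern, which were not counted as members, differed among themselves. They are the same rows as the copies of Mrpl23, Mrpl27, Mrpl48 and Mrps36 described above. Mrps36-ps1 measured 5.85 ± 0.718 CPM in eGFPlo and 2.72 ± 0.430 CPM in eGFPhi, Mrpl27-ps 7.07 ± 0.745 and 3.72 ± 0.511 CPM, and both fell in edgeR. Mrpl23-ps1 rose from 2.13 ± 0.315 to 3.71 ± 0.323 CPM (log2 fold change 0.81, adjusted p = 0.00397 in edgeR), while Mrpl23 itself measured 17.7 ± 1.91 and 16.3 ± 2.32 CPM and did not pass. Mrpl48-ps (9.19 ± 0.913 and 9.46 ± 0.491 CPM) and Mrps36-ps2 (2.93 ± 0.406 and 2.53 ± 0.248 CPM) did not pass. All values are mean ± SD with n = 3 each.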
